A study of Homo sapiens with 6 samples.

Results

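The ZNF436 locus holds the gene that was knocked down in this study. It was described here as all ATAC-seq peaks whose midpoint lay in chr1:23600001-23800000 (hg19), a window of 200 kb with ZNF436 transcribed toward lower coordinates from a start near position 23695000. The knockdown libraries held 10, 11 and 9 such peaks among 115864, 102454 and 87871 in the whole lists (replicates 1, 2 and 3), and the control libraries 7, 8 and 7 among 50719, 53662 and 68342. Any peaks of the 6 libraries sharing 1 bp or more were joined into a site, which gave 15 sites in the window, of 157315 on chromosomes 1 to 22 and X. All 15 lay between chr1:23669723 and chr1:23751973, and the outer parts of the window held no peak in any library.

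ATAC-seq uses the Tn5 transposase to tag DNA that is not packed away, and was run on day-15 ventricular-like cardiomyocytes derived from H9, a human embryonic stem cell line. The groups were ZNF436 knockdown (3 libraries) and control (3 libraries), each library made from 50000 cells of an independent differentiation. All libraries came from this 1 line, and neither the means of knockdown nor what the control cultures received is given in the sources used here. An action of the knockdown agent itself at the locus and loss of the ZNF436 protein therefore cannot be told apart. The deposited lists give positions and the peak caller's score but no reads, so sequencing depth is unknown. Markers of cardiomyocytes were not checked, because no gene positions of hg19 were at hand.

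ZNF436 encodes a KRAB zinc finger protein. Proteins of this family bind DNA through an array of C2H2 zinc fingers, many of them at sequences derived from transposable elements. Their KRAB domain recruits the corepressor TRIM28, around which silent chromatin with histone H3 lysine 9 trimethylation is built. The promoter of an expressed gene is commonly free of nucleosomes and is found as a strong ATAC-seq peak. An open promoter is not a measure of the amount of transcript or protein, so the accessibility of the ZNF436 start does not by itself measure the knockdown.

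In the RefSeq gene table the order along the chromosome is HNRNPR, ZNF436, ZNF436-AS1, TCEA3, LOC124903875 (a long non-coding RNA gene) and ASAP3. HNRNPR encodes a nuclear protein that binds pre-mRNA, ZNF436-AS1 is a long non-coding RNA on the strand opposite to ZNF436, and TCEA3 encodes an elongation factor of the TFIIS family. ASAP3 encodes a GTPase-activating protein for ARF proteins. The table is of another assembly (GRCh38.p14), so it was used for names and order alone. Of the 5 genes other than LOC124903875, 4 had promoter entries in the RefSeq promoter table (GRCh38.p14), and ZNF436 and ZNF436-AS1 had 2 each. The 250 bases before both starts of ZNF436, the first start of ZNF436-AS1 and the start of HNRNPR are shown because the comparison turns on whether these starts were open. Capitals mark CCAAT, or ATTGG where it lies on the other strand. The first ZNF436 entry lies farther upstream than the second, and the starts of ZNF436-AS1 lie between them.
ZNF436, first entry: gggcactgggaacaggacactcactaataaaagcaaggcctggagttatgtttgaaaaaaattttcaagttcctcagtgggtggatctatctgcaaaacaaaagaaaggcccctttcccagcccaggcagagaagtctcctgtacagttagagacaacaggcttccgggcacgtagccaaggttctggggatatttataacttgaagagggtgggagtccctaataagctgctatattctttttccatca
ZNF436, second entry: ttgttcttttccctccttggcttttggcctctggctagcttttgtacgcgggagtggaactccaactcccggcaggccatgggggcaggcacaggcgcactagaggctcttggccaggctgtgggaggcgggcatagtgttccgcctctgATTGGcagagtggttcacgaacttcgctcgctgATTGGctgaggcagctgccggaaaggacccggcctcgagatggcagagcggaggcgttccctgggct
ZNF436-AS1, first entry: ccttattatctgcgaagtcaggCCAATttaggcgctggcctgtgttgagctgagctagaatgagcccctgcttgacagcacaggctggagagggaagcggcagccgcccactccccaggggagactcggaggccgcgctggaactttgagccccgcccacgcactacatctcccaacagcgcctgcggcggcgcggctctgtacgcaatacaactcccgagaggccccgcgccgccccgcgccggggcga
HNRNPR: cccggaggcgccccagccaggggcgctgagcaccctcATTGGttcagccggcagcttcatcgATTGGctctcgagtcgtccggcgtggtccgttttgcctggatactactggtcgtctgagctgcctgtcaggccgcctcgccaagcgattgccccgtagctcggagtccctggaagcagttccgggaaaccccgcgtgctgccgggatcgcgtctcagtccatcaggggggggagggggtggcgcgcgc

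The 2 ZNF436 entries differed in composition. The first had 45.6% G and C, 2 CpG and no CCAAT, whereas the second had 62.0% G and C, 14 CpG and 2 copies of CCAAT. HNRNPR had 68.0%, 25 CpG and 2 copies, and the first entry of ZNF436-AS1 had 66.4%, 23 CpG and 1 copy. Over all 35116 promoter entries the medians were 58.0% G and C and 11 CpG, and 32% held CCAAT on at least 1 strand. The GC box GGGCGG was in neither ZNF436 entry on either strand, nor in that of HNRNPR. The first entry of ZNF436-AS1 had 3, and 42.6% of all entries held at least 1. Which of these starts lies under which peak was not determined, since the entries and the peaks are on different builds.

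**Figure D1:**
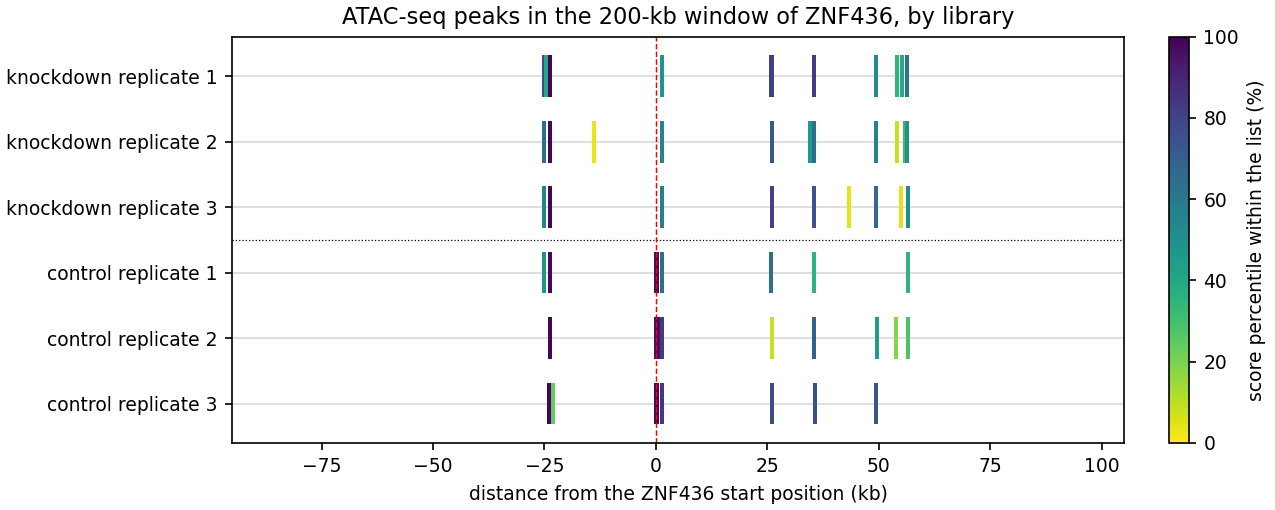
Peaks of the 200-kb window in the 3 knockdown libraries (upper rows) and the 3 control libraries (lower rows) by distance from the ZNF436 start position in kb (dashed line), coloured by score percentile within the list; peaks under 0.9 kb are drawn 0.9 kb wide. The control libraries have dark bars at the ZNF436 start position and at the site near HNRNPR, the knockdown libraries at the HNRNPR site alone.

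Position 23695000, taken here as the start of ZNF436, lay under a strong peak in each control library and under no peak in any knockdown library. No peak of knockdown replicates 1, 2 or 3 covered it. The peaks over it spanned chr1:23694486-23695641 in control replicate 1, chr1:23694568-23696145 in control replicate 2 and chr1:23694481-23695721 in control replicate 3. These control peaks were 1156, 1578 and 1241 bp wide, with scores of 784, 564 and 957 against a lowest score of 25, 20 and 22 in the same lists. Within their lists they stood at the 97.20, 96.76 and 98.55 score percentiles. A missing entry in a knockdown list says that no peak reached the caller's limit there, not that accessibility was nil. The knockdown lists were the longer ones and reached down to scores of 20, 23 and 22. Depth and the caller's threshold are unknown, so a limit of detection was not tested.

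A second, smaller peak farther upstream was kept in both groups, and whether it lies at the other RefSeq start of ZNF436 was not determined. It lay at chr1:23696267-23696482, chr1:23696135-23696543 and chr1:23696279-23696497 in knockdown replicates 1, 2 and 3. In the control libraries it lay at chr1:23696090-23696605, chr1:23696287-23696477 and chr1:23696033-23696638. Its scores were 102, 133 and 131 in knockdown and 132, 201 and 271 in control, which placed it at the 48.37, 55.59 and 57.85 percentiles of the knockdown lists and at the 63.33, 83.00 and 84.66 percentiles of the control lists. Scores and percentiles from lists of unequal length show no change by themselves.

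**Figure D2:**
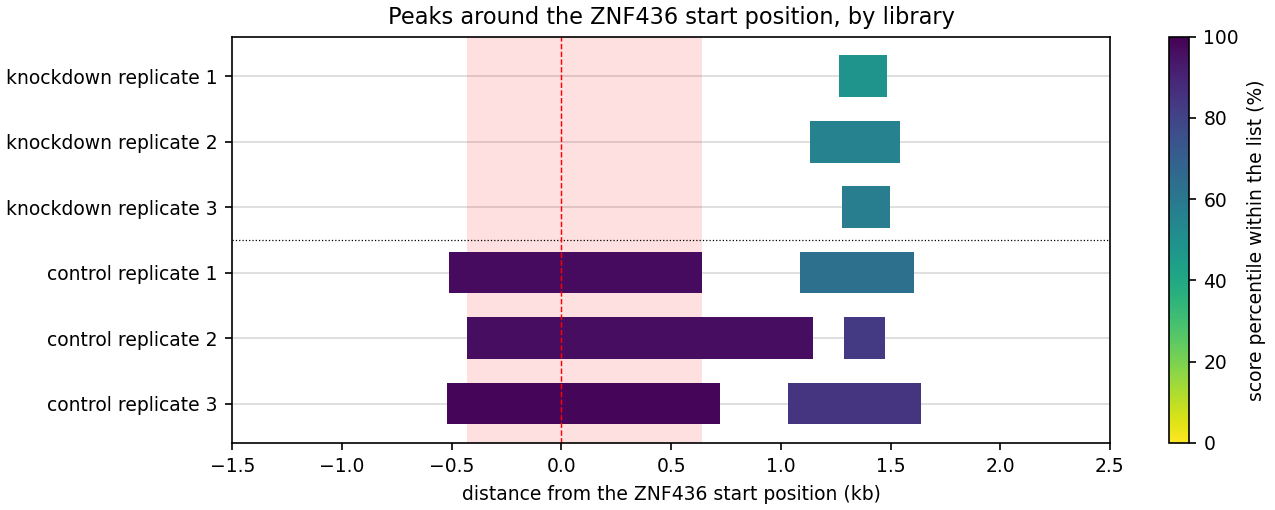
Peaks around the ZNF436 start position in the 3 knockdown libraries (upper rows) and the 3 control libraries (lower rows), by distance from the start position in kb and coloured by score percentile within the list. The shaded stretch of 1074 bp is covered in every control library and in none of the knockdown libraries, while all 6 libraries have a peak to its right.

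Because the wide peak of control replicate 2 ran on into the second one, merging joined both into 1 site, chr1:23694481-23696638, that counted as called in all 6 libraries. Presence alone therefore hid the difference, and the bases under peaks showed it. Peaks covered 216, 409 and 219 bp of the site in the knockdown libraries and 1672, 1769 and 1847 bp in the control libraries. All 3 knockdown values lay far below all 3 control values. The mean was 281 ± 111 bp in knockdown and 1763 ± 87.7 bp in control (SD, n = 3 each), a difference of -1481 bp (two-sided exact permutation test, p = 0.1; Benjamini-Hochberg adjusted p = 0.2 over 4 shared sites). Groups of 3 cannot give a p below 0.1 in this test, so no such difference could pass a threshold of 0.05.

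The loss lay on the start side of the site. Up to the first base under any knockdown peak, position 23696135, the knockdown libraries had 0 bp under peaks and the control libraries 1201, 1567 and 1343 bp (1370.3 ± 185 bp, SD, n = 3; two-sided exact permutation test, p = 0.1). From that base on, the knockdown libraries had 216, 409 and 219 bp and the control libraries 471, 202 and 504 bp. On this far side the groups overlapped (281 ± 111 bp in knockdown and 392 ± 166 bp in control, SD, n = 3 per group; two-sided exact permutation test, p = 0.4). The division was placed after the peaks had been seen, at the edge of the knockdown peaks. The 0 bp and the separation of the groups on the start side follow from it, so the p-value of that side carries no evidence.

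Among the regions called in all 6 libraries, the ratio of covered bases was lowest at the ZNF436 site. Over the 28666 regions called in all 6 libraries the ratio of the knockdown mean to the control mean had a median of 1.37. At the ZNF436 site it was 0.16, the lowest of all 28666, and the difference in bp was the 11th lowest. In 0.75% of these regions all 3 knockdown values lay below all 3 control values, as they did at ZNF436, and in 47.3% they all lay above. The ranking leaves out the 203 of 157315 regions called in all 3 control lists and no knockdown list. The ZNF436 site entered it as 1 region because control replicate 2 joined the peak over the start position to the upstream one. These ranks describe the lists and carry no test.

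Counting single bases gave the same picture without merged sites. A stretch of 1074 bp, chr1:23694568-23695641, was covered in every control library and in none of the knockdown libraries, from -433 to 641 bp around position 23695000. Over chromosomes 1 to 22 and X there were 1217 such stretches, with a median of 40 bp, and that at ZNF436 was the longest. The next, chr2:91917173-91917619, had 447 bp. Of the bases under peaks in all 3 control libraries, 0.652% were in no knockdown list. In the other direction 17.4% of the bases under peaks in all 3 knockdown libraries were in no control list, in 54001 stretches of which the longest had 1006 bp. This measure was chosen after the peaks of the locus had been seen.

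The first rank of this stretch held without any 1 library and not under stricter lists. Leaving out each library in turn, it had 1074 to 1156 bp and was the longest each time. With the 50719 strongest peaks of each list it kept its 1074 bp but ranked 7th of 1932, and with the strongest 50% of each list it ranked 5th of 576. Both settings drop weaker knockdown peaks, which can only lengthen such stretches where control peaks remain.

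**Figure D3:**
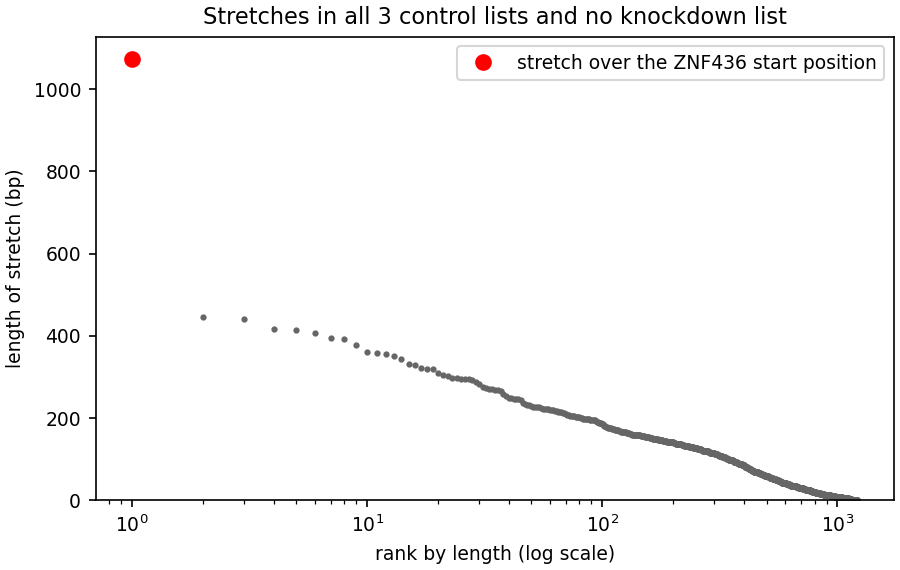
Length in bp of the 1217 stretches covered in every control library and in none of the knockdown libraries, by rank on a log scale. The stretch over the ZNF436 start position (red) has 1074 bp and the second longest 447 bp.

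Few control peaks of such strength were missing in knockdown. Control replicate 1 had 1425 peaks with a score of at least 784, and the ZNF436 peak was the only 1 of them with under 10% of its bases below a peak of any knockdown library. Control replicate 2 had 1757 peaks with a score of at least 564, and 2 of them met this condition. The other was chr19:11380808-11381026, 219 bp wide. Control replicate 3 had 984 peaks with a score of at least 957, again with 2 that met it, the other being chr19:23254173-23254298, 126 bp wide. The median peak of this strength had 100% of its bases below a knockdown peak in each of the 3 lists. The score limits were the scores of the ZNF436 peak itself, so its presence among the peaks counted was fixed in all 3 control libraries. Whether the chr19 peaks had weaker counterparts in the other control libraries was not examined. The limit of 10% was chosen after the locus had been seen.

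The neighbouring strong site did not share this loss. It lay at chr1:23670678-23671689, on the side of ZNF436 where gene order places HNRNPR. It was the only 1 of the 5 sites on that side called in all 6 libraries, and the start of HNRNPR is a candidate for it. Its peaks covered 942, 943 and 955 bp in the knockdown libraries and 692, 716 and 676 bp in the control libraries. All knockdown values lay above all control values (947 ± 7.23 bp in knockdown and 695 ± 20.1 bp in control, SD, n = 3 per group; two-sided exact permutation test, p = 0.1, Benjamini-Hochberg adjusted p = 0.2). Such separation upward was seen in 47.3% of regions called in all 6 libraries, so it is near the background of these lists. The scores were 1601, 1490 and 1365 in knockdown and 868, 951 and 1011 in control, at the 99.10, 98.74 and 99.02 percentiles in knockdown and the 97.77, 98.91 and 98.75 percentiles in control.

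Peaks were also ranked by score within the window, list by list. The HNRNPR candidate site had the highest score of the window in every library. The only peak at the ZNF436 site, the upstream one, ranked 7 of 10, 5 of 11 and 5 of 9 in the knockdown libraries. In the control libraries the peak over the start position ranked 2 and the upstream peak 3, among 7, 8 and 7 peaks. The upstream peak shared its rank with another peak in knockdown replicate 2 and in control replicate 1. Numbers of peaks differ between the lists, so these ranks show no change by themselves.

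Of the 4 sites called in all 6 libraries, the remaining pair lay on the other side of ZNF436, toward TCEA3. Regions called in all 6 libraries made up 18.2% of all regions. The site chr1:23720315-23721487 had 1089, 975 and 508 bp in the knockdown libraries and 345, 461 and 724 bp in the control libraries. The groups overlapped through knockdown replicate 3 and control replicate 3 (857 ± 308 bp in knockdown and 510 ± 194 bp in control, SD, n = 3 per group; two-sided exact permutation test, p = 0.2, Benjamini-Hochberg adjusted p = 0.267). The site chr1:23730282-23730973 had 372, 378 and 451 bp in the knockdown libraries and 259, 383 and 692 bp in the control libraries. Here the knockdown values lay inside the range of the control values (400.3 ± 44.0 bp in knockdown and 445 ± 223 bp in control, SD, n = 3 per group; two-sided exact permutation test, p = 0.8, Benjamini-Hochberg adjusted p = 0.8). Gene order does not tell which site of that side, if any, lies at the start of TCEA3.

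The last site of the window, chr1:23750962-23751973, was called in 5 libraries, with 697, 728 and 646 bp in knockdown, 219 and 147 bp in control replicates 1 and 2, and no peak in control replicate 3. All knockdown values lay above all control values, in the direction in which the lists as a whole differ. Its scores were 146, 112 and 108 in knockdown and 69 and 45 in the 2 control libraries. The starts of TCEA3 and ASAP3 were not analysed here.

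**Figure D4:**
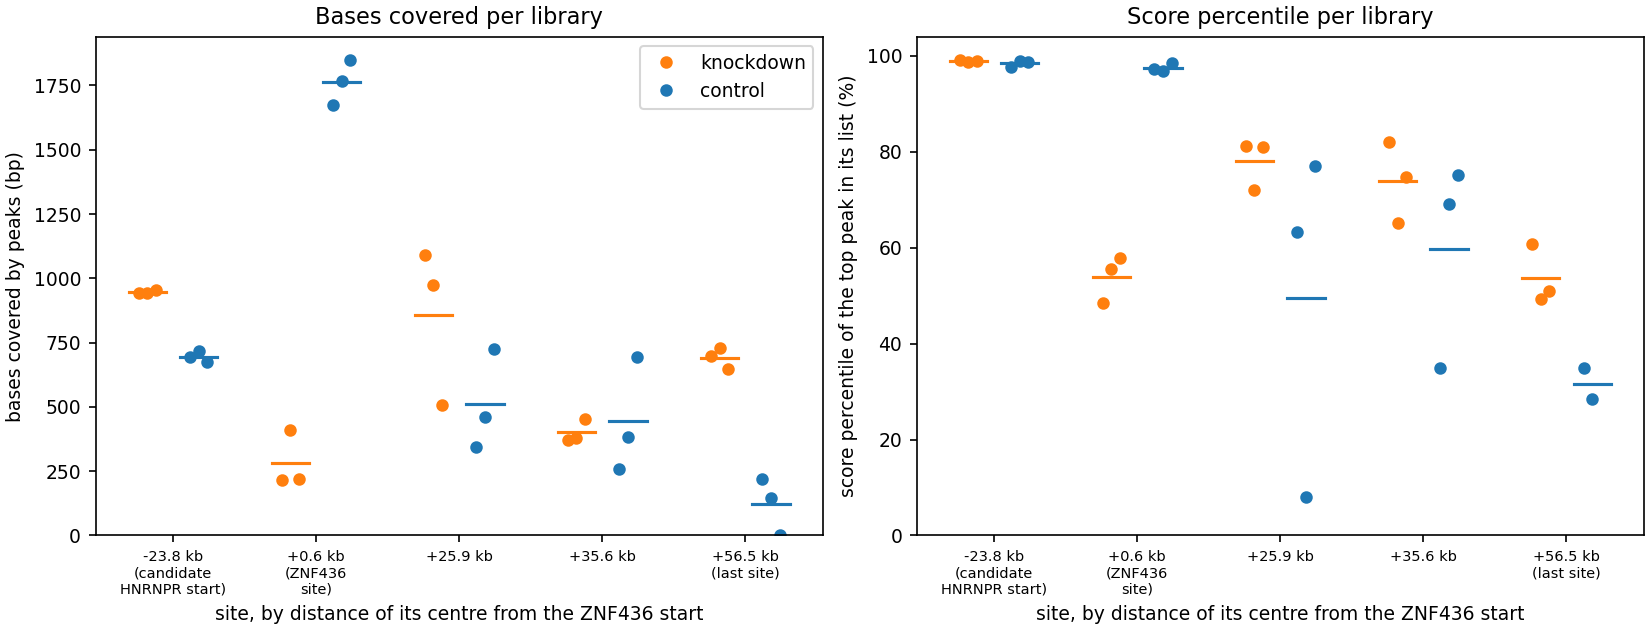
Bases covered by peaks in bp (left) and score percentile of the top peak within its list (right) at the 4 sites called in all 6 libraries and at the last site of the window, for knockdown (orange) and control (blue); points are libraries, lines are means over the libraries with a value, and a library without a peak has 0 bp and no percentile. At the merged ZNF436 site the knockdown libraries have 216 to 409 bp and the control libraries 1672 to 1847 bp. The top peak there is the one over the start position in control and the upstream one in knockdown.

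Set against its neighbours within the same library, the ZNF436 site was smaller in knockdown. The log2 ratio of its covered bases to the mean of the other 3 shared sites was -1.89, -0.90 and -1.54 in the knockdown libraries and 1.95, 1.77 and 1.41 in the control libraries. The sign was negative in all 3 knockdown libraries and positive in all 3 control libraries. The means were -1.45 ± 0.50 in knockdown and 1.71 ± 0.28 in control (SD, n = 3 each), a difference of -3.15 (two-sided exact permutation test, p = 0.1). The neighbouring sites were wider on average in knockdown, which adds to this difference. Sites were also compared by the score percentile of their top peak. At the ZNF436 site this was the peak over the start position in control but the upstream peak in knockdown, so 2 different peaks enter the comparison. Over the 6 libraries the HNRNPR candidate site was the most like ZNF436 of the 3, with a mean absolute difference of 22.99 percentile points. The sites chr1:23730282-23730973 and chr1:23720315-23721487 followed with 28.89 and 36.07. This order came from the control libraries, in which the HNRNPR candidate site differed from ZNF436 by 0.97 points on average. In the knockdown libraries it was the least alike of the 3, at 45.02 points, against 20.04 and 24.11 for chr1:23730282-23730973 and chr1:23720315-23721487.

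The other 11 sites of the window were smaller or less regular. No site of the window was called in all 3 knockdown libraries and no control library, a class that held 7.73% of all regions, and none in every control library and no knockdown library, which held 0.129%. In 6 of the 15 sites, peaks came from knockdown libraries alone, 5 of them from a single library, and 47.7% of all regions were of this kind. The sixth, chr1:23749935-23750336, had 402 and 145 bp in knockdown replicates 1 and 3. A single site, chr1:23671835-23671980, came from a control library alone, control replicate 3, with 146 bp, as did 10.7% of all regions from control libraries alone. The site chr1:23669723-23670153, beside the HNRNPR candidate, had 431, 361 and 300 bp in the knockdown libraries and 145 bp in control replicate 1, with no peak in the other two control libraries. The site chr1:23744254-23744756 had 227, 206 and 201 bp in the knockdown libraries, 491 and 292 bp in control replicates 2 and 3, and no peak in control replicate 1. The site chr1:23748652-23749199 had 285 and 210 bp in knockdown replicates 1 and 2 and 548 bp in control replicate 2.

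As a whole the window did not stand apart from the genome in its number of peaks. It held 10 ± 1 peaks in knockdown and 7.33 ± 0.58 in control (SD, n = 3 per group; two-sided exact permutation test, p = 0.1). Per 10000 peaks of the list these were 0.987 ± 0.110 in knockdown and 1.30 ± 0.244 in control (two-sided exact permutation test, p = 0.2). In a fit over 10121 windows of 200 kb the log2 change of its share of peaks was -0.41 ± 0.20 (SE; limma, Benjamini-Hochberg adjusted p = 0.205), against a median of 0.02 over all windows. In that fit 3.93% of windows (398) were higher and 5.06% (512) lower in knockdown; without scaling to the list length 6220 were higher and 27 lower, and without knockdown replicate 1 only 8 and 90. Without that scaling the change of the ZNF436 window was 0.42 (limma, adjusted p = 0.107), against a median of 0.85. The bases under peaks in the window were 4860, 4663 and 3585 bp in the knockdown libraries and 3332, 4515 and 4377 bp in the control libraries. These overlapped (4369 ± 686 bp in knockdown and 4075 ± 647 bp in control, SD, n = 3 per group; two-sided exact permutation test, p = 0.5). Outside the ZNF436 site they were 4644, 4254 and 3366 bp in the knockdown libraries and 1660, 2746 and 2530 bp in the control libraries, with all knockdown values above all control values (4088 ± 655 bp in knockdown and 2312 ± 575 bp in control; two-sided exact permutation test, p = 0.1).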

How the data were processed

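The 6 deposited files are peak lists on hg19, 1 per library. Per the submitters' processing notes, Bowtie2 2.4.5 and bedtools 2.30.0 were used; their roles, the caller's version and threshold, duplicate removal and any Tn5 shift were not given in those sources. Peak names begin with MACS and carry 1 library's name, which points to calling library by library. The score is the authors' peak caller's own value and was used to describe and rank peaks within a list. Starts and ends, counted from 0 in the files, are printed counted from 1.

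Members were taken by peak midpoint. The members, lists and tests were chosen with earlier results of these data known. Values are given in every library for each site called in all 6 libraries, for the last site of the window (added after its values were seen) and for the other sites with more than 1 peak. Sites called in all 3 libraries of 1 group alone were to be given too, but there were none. The 5 sites with a peak in a single knockdown library are given by count only. Percentiles use mean ranks for ties. Windows of 200 kb with a mean of at least 2 peaks entered limma 3.58.1 (R 4.3.3, trended and robust) as log2((peaks + 0.5) / list length × median length), threshold 0.05. The counting and the fit were tested on simulated data. All else used Python 3.11.15, pandas 2.3.3 and numpy 2.4.6. P-values measure the spread between 3 differentiations per group, and those of limma also draw on the variance of all windows in the fit.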

Additional observations from a re-analysis of the deposited data

How the results depend on the processing

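The difference in bases at the ZNF436 site kept its direction in all 10 alternatives, from -1545 to -1439 bp with 1 library left out and -1553 bp with lists of equal length or the strongest 50% of each list. Its log2 ratio to the other shared sites ran from -3.42 to -2.93 with 1 library left out; with equal lists or the strongest 50% it could not be computed, because knockdown replicate 1 then had no peak at the site, and the knockdown percentile had no value there either. The control percentile was 95.0 with the strongest 50% (96.98 to 97.88 with 1 library left out), which removes the peaks ranked below it. The change in the window's share of peaks was 0.42 without scaling, -0.098 with bins of 1 Mb and -0.21 with equal lists, and ran from -0.57 to -0.30 with 1 library left out, with adjusted p from 0.0675 to 0.535 over all alternatives (limma). Of all windows, 105 were higher and 167 lower with equal lists, and 208 higher and 590 lower with the strongest 50%. Higher windows numbered 8 (lower 90), 38 (lower 211) and 26 (lower 174) without knockdown replicates 1, 2 and 3, and 396 (lower 302) and 812 (lower 678) without control replicates 2 and 3. The difference in window bases was -665 bp with equal lists and -76.7 to 687 bp with 1 library left out, below 0 without control replicate 1. At chr1:23730282-23730973 it was 42 bp with the strongest 50% and -137 to 79.3 bp with 1 library left out, above 0 without control replicate 3. Sites called in knockdown only numbered 1 with the strongest 50%, 2 when peaks had to cover 50% of a site and 0 to 1 with 1 library left out; those called in control only numbered 1 with the 50% rule, which was not fulfilled by knockdown peaks at ZNF436, and 0 to 1 with 1 library left out. Other causes of these moves were not tested.

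With the replicate number as a block the differences were unchanged at -1481 bp (exact sign-flip test, p = 0.25, the smallest possible) and -3.15, the window's share changed by -0.41 (limma, adjusted p = 0.217), and 609 windows were higher and 615 lower, against 398 and 512. Deviations from the group means correlated by 0.000701, 0.0453 and 0.0218 between libraries that share a number, all under 0.1. Knockdown replicates 2 and 3 correlated best with the control of their own number and knockdown replicate 1 with control replicate 3. The libraries are taken to share only a number. Depth is unknown and limits every absence of a peak.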
